A study of Mus musculus with 6 samples.

Results

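Isolated CTCF regions are those whose nearest neighbour in the joint list of CTCF-bound regions lies more than 100 kb away on both sides. The rule used only the positions of the regions, measured from edge to edge on chromosomes 1 to 19 and X of the mouse build mm9. It took 1965 of the 57644 regions on these chromosomes (3.41%), and 55679 regions remained for comparison. The joint list held 57662 regions in all. Of the isolated regions, 13 had no further region between them and a chromosome end.

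CTCF recognises a long DNA motif with its zinc fingers and halts the loop-extruding cohesin ring. Loops form mostly between CTCF sites whose motifs point towards each other, and such sites set many domain borders and insulate promoters from distant enhancers. In embryonic stem cells, CTCF sites are dense in gene-rich chromosome segments and sparse in gene deserts. O-GlcNAc is a single sugar that the enzyme OGT attaches to serine or threonine of nuclear proteins.

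CTCF binding was profiled by ChIP-seq, the sequencing of DNA recovered with an antibody to CTCF, in mouse embryonic stem cells (mESCs). In the cells of both genotypes, endogenous CTCF carried a degron tag and had been removed by auxin, and CTCF encoded by an introduced vector took its place. The vector supplied either wild-type CTCF (WT_CTCF) or CTCF in which 1 threonine was replaced by alanine, so that this residue cannot carry O-GlcNAc (MUT_CTCF). Cells came from picked clones, so genotype and clone cannot be told apart in these libraries. Each genotype had 2 ChIP libraries described as biological replicates and 1 input library, and the 2 inputs were not analysed here. The files hold binding only, so the cell type label could not be checked against marker expression.

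A region counted as called in a library when it touched at least 1 peak that the authors had called there. The libraries held from 32712 to 54001 peaks. The score of a peak is the peak caller's own value, whose definition and cutoff were not stated. A score is not a read count, and read depth per library is unknown here. Calls and scores therefore compare peak lists, and whether they follow the amount of bound CTCF was not tested here. The study itself reported more chromatin binding by MUT_CTCF, from spike-in scaled ChIP-seq and from immunoblots. The calls and scores below go the other way, and the reason for this was not tested. The mean signal of a region is the authors' mean of spike-in scaled read counts over the 4 ChIP libraries, with no value per library.

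Isolated regions stood alone over long distances. The median gap to the nearest neighbour was 152 kb, and the median stretch between both neighbours was 480 kb. In 65 regions the nearest gap was above 500 kb, and in 10 it was above 1000 kb. The largest nearest gap was 2026 kb. Isolated regions often followed each other. An isolated region stood on both sides of 424 of them and on 1 side of 876, and 665 had none beside them. The longest run held 13 isolated regions in a row on chromosome 18, between 25999313 and 30206091.

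The chromosome with the largest isolated share was X, with 153 of its 1367 regions (11.2%). Chromosome 11, which is rich in genes, had 58 of 5247 (1.11%). The number of isolated regions per Mb varied less, from 0.476 on chromosome 11 to 0.918 on X, while all regions ranged from 8.20 per Mb on X to 43.1 on chromosome 11. On the autosomes, 1812 regions were isolated.

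Sequences are shown for 8 isolated regions that match the CTCF core motif. They come from the extremes of spacing, signal and score difference described further on, and from a promoter. Named regions without a match are not printed. Each stretch of 61 bases is centred on the best match to the CTCF core motif, a consensus of 13 positions that was searched on both strands with at most 1 mismatch. It is printed on the strand of the match, from 5′ to 3′, with the match in capitals, and was read from the mm9 reference.
chrX:25573372-25573432, minus strand, one of the largest gaps: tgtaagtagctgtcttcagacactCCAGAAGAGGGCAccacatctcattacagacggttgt
chr7:94560110-94560170, minus strand, among the highest signals: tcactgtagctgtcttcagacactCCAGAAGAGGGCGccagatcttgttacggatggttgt
chr16:77989550-77989610, minus strand, highest score difference: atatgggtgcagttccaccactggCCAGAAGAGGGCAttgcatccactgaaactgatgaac
chrX:115433876-115433936, plus strand, one of the largest gaps: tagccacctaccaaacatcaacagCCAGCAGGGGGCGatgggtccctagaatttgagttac
chr3:14381881-14381941, plus strand, highest signal: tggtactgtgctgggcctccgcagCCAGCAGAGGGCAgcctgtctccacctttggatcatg
chr11:42812849-42812909, plus strand, lowest score difference: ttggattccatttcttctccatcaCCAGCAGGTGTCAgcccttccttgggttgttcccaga
chr13:81294507-81294567, minus strand, second lowest score difference: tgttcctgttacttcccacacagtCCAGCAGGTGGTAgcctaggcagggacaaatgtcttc
chr9:85222152-85222212, minus strand, promoter of Fam46a: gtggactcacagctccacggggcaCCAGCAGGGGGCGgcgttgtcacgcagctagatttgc

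Of the isolated regions, 1064 (54.1%) held the CTCF core motif, and 241 (12.3%) matched it without a mismatch. Among the other regions these shares were 60.8% and 12.7%. Intervals of the same width placed 5000 bp to either side of an isolated region held the motif in 1.25% of 3928 cases. The corresponding control intervals of other regions, where they touched no region themselves, held it in 2.77% of 104903. Only 30 isolated regions (1.53%) had 2 or more matches, against 4.01% of the other regions.

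The empty flanks also contained unoccupied motifs. The whole of chromosomes 1 to 19 and X held 9434 exact matches to the core, and 7388 of them (78.3%) lay in a region of the list. Within 100 kb of the isolated regions, 373 Mb of known sequence held 217 exact matches with no region, or 0.581 per Mb. The genome outside regions and these flanks held 0.849 per Mb. A match is a description of letters and does not show that CTCF could bind there.

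A pair of cores that differ in the last base was the most frequent among the isolated regions. CCAGAAGAGGGCA stood in 187 isolated regions and CCAGAAGAGGGCG in 61. Together they made up 23.3% of the matches in isolated regions and 36.9% of those in other regions. These cores were singled out after their counts were seen. The bases around them were shared too. The most common base at each flanking position was taken from the isolated regions with these cores. Median identity to it was 54.2% in those same regions, which is not an independent value, and 27.1% in isolated regions with other cores. Among other regions, which did not enter it, the medians were 60.4% with these cores and 29.2% with the remaining cores. The printed stretches from chromosome X near 25573372 and chromosome 7 were identical in 51 of 61 bases, whereas the stretch from chromosome 16 shared only 25 of 61 with that of chromosome 7. Short interspersed repeats of rodents are known to carry CTCF motifs, but no repeat annotation was used here. Isolated regions with these cores had a median mean signal of 56.6, against 101 for isolated regions with other cores, and 37.5% against 59.7% were called in all 4 libraries. Among other regions the contrast was wider, with 39.6% against 73.9%. Each core of the pair carries 1 mismatch, whereas the remaining cores include all exact matches. Of the 241 isolated regions with an exact match, 72.6% were called in all 4 libraries. The part of this in the contrast was not tested.

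The motif of an isolated region faced that of the next motif-bearing region in the direction in which it pointed in 597 of 1056 cases (56.5%). Among other regions this share was 48.6%. The median distance to that next region was 296 kb for isolated regions and 27.3 kb for the others. The plus strand carried 547 of the 1064 motifs (51.4%). These are descriptions without a test, since neighbouring regions share chromosome segments.

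Isolated regions lay mostly outside genes. Intergenic sequence, meaning no overlap with a gene or a promoter, held 1332 of them (67.8%), against 40.9% of other regions. Introns held 503 (25.6%, against 39.3%) and exons 76 (3.87%, against 13.9%). A promoter, taken as 3000 bp upstream of a transcription start, was touched by 108 isolated regions (5.50%) and by 16.1% of the others. Those of the others with a nearest gap of 50 to 100 kb stood between, with 53.8% intergenic and 7.85% touching a promoter. The nearest start of a protein-coding gene was a median of 155 kb away, against 14.6 kb for other regions. No protein-coding gene lay within 100 kb of 938 isolated regions (47.7%), which was true of 6.48% of the others.

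The surrounding sequence was poor in G and C. The median G+C content within 100 kb was 38.8% for isolated regions and 44.8% for the others, and within the regions themselves it was 42.3% against 45.7%. Other regions with a nearest gap of 50 to 100 kb were intermediate, with 41.2% and 43.4%. Isolated regions were also narrower, with a median width of 368 bp against 456 bp. Sequence with more than 1 copy in the genome, judged by the median copy number of 31-base words, made up 159 isolated regions (8.09%) and 6.29% of the others. Unknown bases stood within 100 kb of 33 isolated regions (1.68%). Reads that align to many places had been removed by the authors, and the part this played in leaving regions without neighbours was not tested.

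Very long genes and genes for adhesion proteins and chemosensory receptors were the nearest protein-coding genes of a larger share of isolated than of other regions. Genes over 500 kb long were nearest to 323 isolated regions (16.4%) and to 2.97% of the others. In introns of such genes lay 207 isolated regions (10.5%, against 3.20%), in 125 different genes, and 47.3% of them were called in all 4 libraries, between the 44.3% of isolated regions and the 52.6% of all regions. Cadherin and protocadherin genes, whose products join neighbouring cells, were nearest to 53 isolated regions (2.70%, against 0.557%). Contactin and contactin-associated genes, which encode neuronal adhesion proteins, were nearest to 29 (1.48%, against 0.136%). Olfactory receptor genes were nearest to 29 as well (1.48%, against 0.474%) and vomeronasal receptor genes to 22 (1.12%, against 0.106%). Zinc finger genes named Zfp were nearest to 18 (0.916%, against 1.57%). The counts carry no test, because regions near 1 gene are not independent.

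The intron host with the most isolated regions was Ptprd (ENSMUSG00000028399.10), a receptor tyrosine phosphatase gene of 2271 kb on chromosome 4. It held 5 isolated regions among its 10 intronic ones, with a mean signal between 33.0 and 121, and 1 of the 5 was called in all 4 libraries. Lrp1b (ENSMUSG00000049252.10), which encodes a large lipoprotein receptor-related protein, held 4 intronic regions, all of them isolated, and 1 was called in all 4 libraries. All 4 intronic regions of Nrg3 (ENSMUSG00000041014.9), the gene of a neuregulin ligand, were isolated as well, and none was called in all 4 libraries. Their mean signal was between 15.8 and 48.8. In Dmd (ENSMUSG00000045103.10), the dystrophin gene, 3 of 9 intronic regions were isolated, 2 of them called in all 4 libraries.

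Isolated regions had less signal than the rest. The median mean signal was 67.0 scaled reads, with quartiles of 38.8 and 129, against 96.8 for other regions, with quartiles of 42.3 and 222. Signal was lower still at the largest gaps. The median was 73.8 at a nearest gap of 100 to 150 kb, 65.5 at 200 to 300 kb and 54.5 above 500 kb. Regions with a neighbour at 1 to 5 kb had a median of 106, and those at 50 to 100 kb had 78.8. Signal thus changed little across the 100 kb limit itself. The share called in all 4 libraries went down along the same bins, from 48.6% at 100 to 150 kb to 26.2% above 500 kb, the last of which held 65 regions. WT_CTCF-only regions are those with a peak in each WT_CTCF replicate and in no MUT_CTCF replicate. Their share over those bins was 19.7%, 20.9%, 22.3%, 21.4% and 33.8%, so it stood out only in the last bin of 65 regions. Regions in the farther bins were also weaker in signal, and calls moved with signal. At a nearest gap of 50 to 100 kb, outside the isolated set, 49.6% were called in all 4 libraries and 18.9% were WT_CTCF-only.

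**Figure D1:**
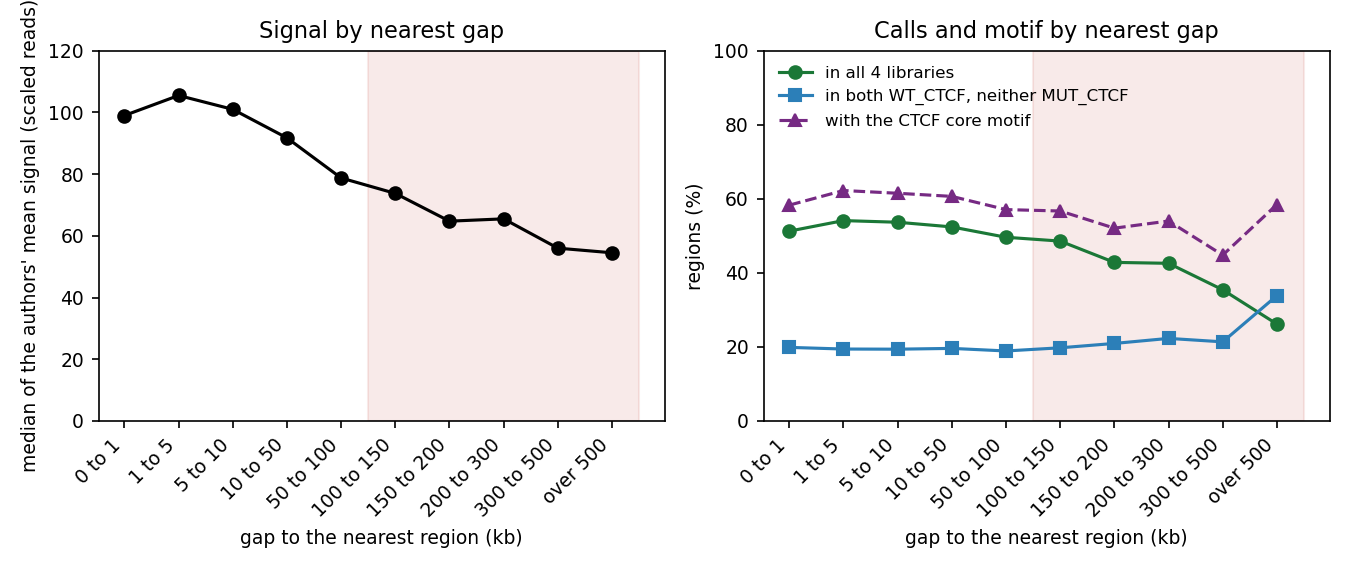
Left, median of the authors' mean signal (scaled reads) by gap to the nearest region (kb); right, percent of regions called in all 4 libraries, WT_CTCF-only, or holding the CTCF core motif. The shaded bins are the isolated regions, whose median signal goes from 73.8 to 54.5 and whose share called in all 4 libraries goes from 48.6% to 26.2%.

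MUT_CTCF was compared with WT_CTCF by calls and scores, in clones whose CTCF differs at this residue. Fewer isolated regions were called in the MUT_CTCF libraries. The list of regions was joined from the peaks of these same libraries, of which the WT_CTCF libraries held more. Their numbers of peaks were 49987 and 54001, against 33939 and 32712 in MUT_CTCF. Shares called are therefore not independent of how regions entered the list, and those of WT_CTCF are high in part by this construction. WT_CTCF replicate 1 called 1650 of the 1965 isolated regions (84.0%) and replicate 2 called 1811 (92.2%). MUT_CTCF replicate 1 called 1031 (52.5%) and replicate 2 called 964 (49.1%). Both MUT_CTCF shares lay below both WT_CTCF shares. The means were 88.1% ± 5.79 (SD, n = 2) and 50.8% ± 2.41 (SD, n = 2), a difference of -37.3 percentage points. The exact two-sided permutation test gave p = 0.333, the smallest value that 2 libraries against 2 allow, so no comparison of library values could pass 0.05. With only peaks at or above the pooled median score, the difference was -22.2 points.

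Other regions differed in the same direction by -32.5 points, with WT_CTCF at 89.95% ± 4.996 (SD, n = 2) and MUT_CTCF at 57.4% ± 1.46 (SD, n = 2). The share of isolated minus that of other regions was -1.89 points ± 0.798 (SD, n = 2) with WT_CTCF and -6.67 points ± 0.953 (SD, n = 2) with MUT_CTCF. These gaps differed by -4.79 points, with both MUT_CTCF libraries beyond both WT_CTCF libraries (exact permutation p = 0.333). The size of this value moved with the limits chosen, to -2.74 points with a gap above 50 kb or with peaks at or above the pooled median score, and to -8.27 points with a gap above 200 kb.

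**Figure D2:**
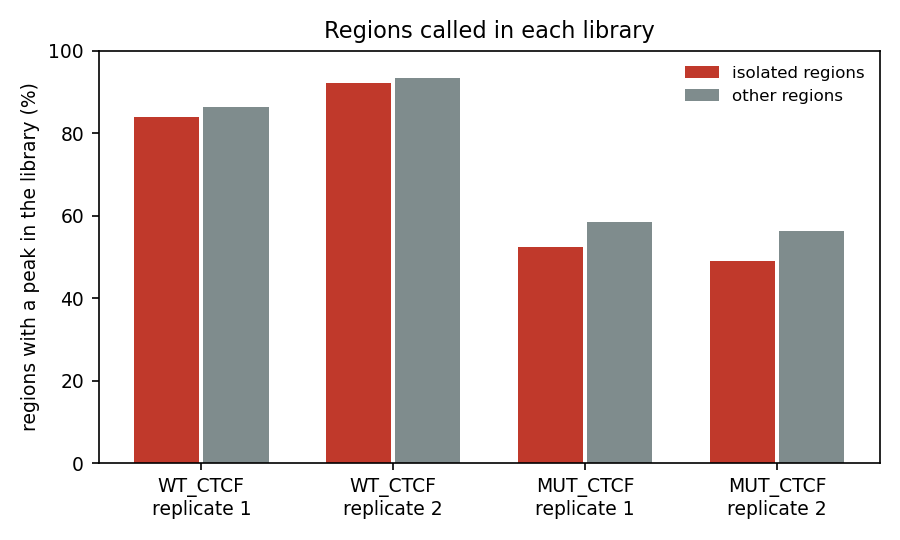
Percent of the 1965 isolated and of the 55679 other regions that touched a peak in each of the 4 ChIP libraries; each bar is 1 library. Isolated regions stand at 84.0% and 92.2% in WT_CTCF and at 52.5% and 49.1% in MUT_CTCF, below the other regions in every library.

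The direction of that gap turned when regions of like signal were compared. All regions were split by mean signal into 5 classes of about equal size, a choice made after seeing the data. As an average over the classes, the share of isolated minus that of other regions was 0.0183 points ± 0.115 (SD, n = 2) for WT_CTCF. For MUT_CTCF it was 4.47 points ± 0.444 (SD, n = 2), so averaged over the classes isolated regions were called more often than others in both MUT_CTCF libraries. The genotypes then differed by 4.45 points (exact permutation p = 0.333, the smallest possible). From the middle class upwards the WT_CTCF libraries called nearly every region, so a gap could hardly appear there in WT_CTCF. Below it, gaps of opposite sign met in the WT_CTCF average. WT_CTCF replicate 1 called 42.2% of isolated and 46.3% of other regions in the lowest class, and 89.6% against 86.4% in the next. For WT_CTCF replicate 2 these shares were 74.1% against 74.8% in the lowest class and 92.8% for each set in the next. The mean signal includes the MUT_CTCF libraries, so the classes are not independent of the genotype values.

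The middle class, from 68.5 to 134 scaled reads, held 503 isolated regions and showed the widest gap. There 88.5% and 82.3% of isolated regions were called in the MUT_CTCF libraries, against 77.5% and 72.8% of others. The WT_CTCF libraries, near their ceiling, called 99.8% and 100% of isolated and 99.2% and 99.7% of other regions. In the same class 75.5% of isolated and 64.1% of other regions were called in all 4 libraries, and 4.97% and 13.4% were WT_CTCF-only. In the class below it, from 36 to 68.3 scaled reads, the MUT_CTCF libraries called 21.9% and 15.6% of 557 isolated regions, against 16.6% and 11.3% of others. In the lowest class hardly any region was called in MUT_CTCF, with at most 1.13% of the 441 isolated ones. Only 96 isolated regions (4.89%) were in the highest class, where 97.9% were called in all 4 libraries and in each MUT_CTCF library. The other regions of that class stood higher, at 98.6% in all 4 libraries and at 98.9% and 98.8% in the MUT_CTCF libraries.

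**Figure D3:**
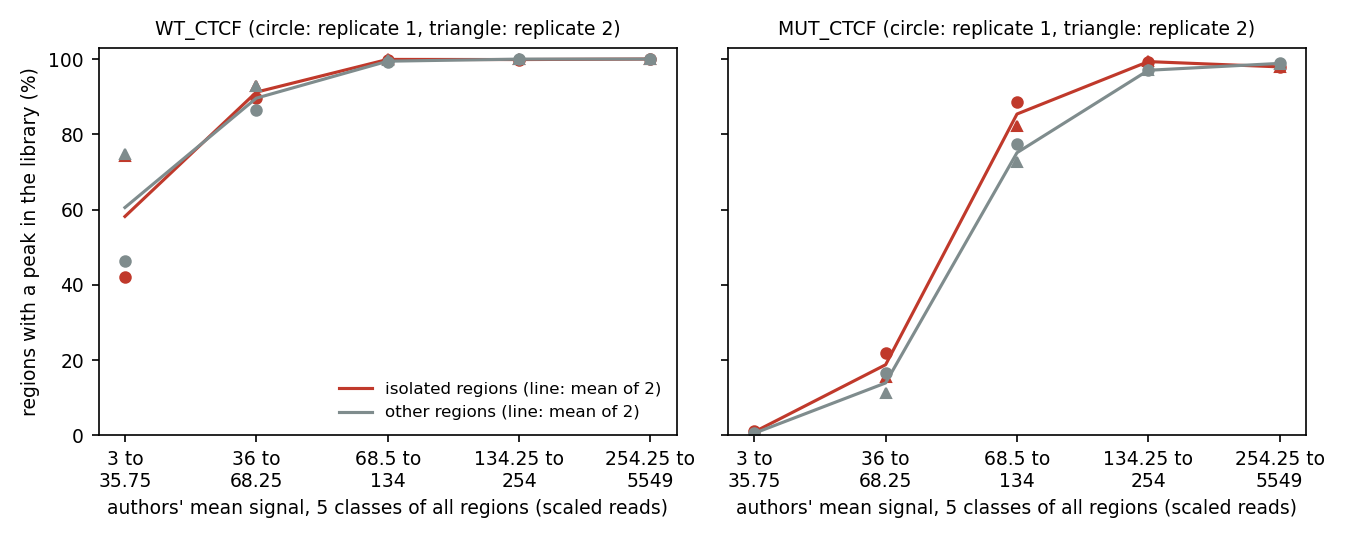
Percent of isolated and other regions that touched a peak, by class of the authors' mean signal (scaled reads, 5 classes of about equal size over all regions), in WT_CTCF (left) and MUT_CTCF (right); symbols are single libraries and lines are means of 2. In the middle class the MUT_CTCF libraries called 88.5% and 82.3% of isolated regions and 77.5% and 72.8% of the others.

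By pattern of calls, 870 isolated regions (44.3%) were called in all 4 libraries, against a background of 52.6% of all regions. The WT_CTCF-only pattern was found in 414 (21.1%), near the background of 19.5%. It was found in 35.9% when WT_CTCF replicate 1 was left out, since it then took in the regions called in WT_CTCF replicate 2 alone. The share of all regions under that setting was not computed. The opposite pattern, with both MUT_CTCF replicates and no WT_CTCF replicate, was found in 0 isolated regions, where the background was 0.0278%. WT_CTCF replicate 2 alone called 291 (14.8%) and WT_CTCF replicate 1 alone 139 (7.07%), against 12.7% and 5.94% of other regions. Single calls in MUT_CTCF were rare, with 3 in replicate 1 and 2 in replicate 2.

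These groups of isolated regions differed in sequence. The core motif was in 66.7% of those called in all 4 libraries, 47.1% of the WT_CTCF-only ones and 35.4% of the 435 called in 1 library. Other regions of these groups went the same way, with 70.4%, 54.6% and 41.0%. Exact matches made up 20.1%, 6.04% and 4.14% of isolated regions in the same order, and 20.2%, 4.09% and 2.91% of other regions. The median mean signal of the isolated regions was 139, 46.8 and 27.0 scaled reads. Multi-copy sequence made up 2.76%, 11.6% and 15.4% of them, and 1.24%, 10.1% and 17.2% of other regions.

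Split by motif, 72.6% of the 241 isolated regions with an exact match were called in all 4 libraries, 49.2% of the 823 with 1 mismatch and 32.2% of the 901 without a match. In the other regions the corresponding shares were 84.2%, 55.2% and 39.9%. The difference in calls between MUT_CTCF and WT_CTCF in isolated regions was -18.7 points with an exact match, -34.7 with 1 mismatch and -44.7 without a match. Other regions had the same order, with -10.7, -32.0 and -40.2 points. Signal of isolated regions moved along with this order, with medians of 131, 74.8 and 52.5 scaled reads.

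Isolated regions on chromosome X were called less often than those on autosomes. The MUT_CTCF libraries called 39.2% and 36.6% of the 153 on X and 53.6% and 50.1% of the 1812 on autosomes. In WT_CTCF the shares were 77.1% and 88.2% on X and 84.5% and 92.5% on autosomes. The median mean signal was 51.3 on X and 69.3 on autosomes. Other regions differed less by chromosome, with 56.2% and 53.1% called in MUT_CTCF on X and 58.5% and 56.5% on autosomes, and 85.7% and 92.9% in WT_CTCF on X and 86.4% and 93.5% on autosomes. Their median mean signal was 75.8 on X and 97.8 on autosomes.

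Scores were lower in MUT_CTCF, in isolated regions and in general. The median score of isolated regions over the peaks of each library was 189 and 177 in WT_CTCF and 140 in both MUT_CTCF libraries. Over the 870 regions called in all 4 libraries, the medians were 362 and 393 in WT_CTCF and 164 and 163 in MUT_CTCF. Other regions called in all 4 had medians of 586 and 625 in WT_CTCF and 264 and 250 in MUT_CTCF. Isolated regions thus had lower scores than others in each of the 4 libraries, and the MUT_CTCF values lay below the WT_CTCF values in both sets. Peaks in isolated regions were narrower in MUT_CTCF as well, with median widths of 315 and 304 bp against 341 and 358 bp (exact permutation p = 0.333). The difference in median width was -40 bp, against -56.5 bp in other regions. In isolated regions it was -13 bp where peak and region had to overlap each other by 50%. The same requirement took the log2 difference in median score from -0.39 to -0.11.

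Isolated regions scored below others by a like amount in the 4 libraries. On the log2 scale the median of isolated minus that of other regions was -0.68 ± 0.018 for WT_CTCF and -0.65 ± 0.049 for MUT_CTCF (SD, n = 2 each). The difference of 0.030 was smaller than the spread between the MUT_CTCF libraries (exact permutation p = 0.667) and changed sign to -0.070 without MUT_CTCF replicate 2.

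A limma fit of the log2 score over the 30317 regions of the whole list called in all 4 libraries gave 766 of 870 isolated regions lower in MUT_CTCF at an adjusted p below 0.05 (88.0%), against a background of 90.8%. No isolated region was higher, adjusted or at an unadjusted p below 0.05, and the background was 0.0396%. The median log2 difference was -1.19 in isolated regions and -1.18 over all fitted regions. Both MUT_CTCF scores lay below both WT_CTCF scores in 827 of the 870 (95.1%, against a background of 96.2%). The share that limma called lower fell well below 88.0% without either WT_CTCF library, with 1 wild-type library left to stand for its group. The share over all fitted regions was not computed under these settings. The median log2 difference of isolated regions was -1.255 without WT_CTCF replicate 1 and -1.14 without WT_CTCF replicate 2.

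Since almost every region shifted down, the scores were also centred on each library's median over the fitted regions. The centred fit asks which regions moved more or less than the rest. It called 41 isolated regions lower (4.71%, against a background of 8.49%) and 44 higher (5.06%, against a background of 10.9%). The median centred difference was 0.021 in isolated regions and 0.032 over all. Isolated regions had lower scores than other fitted regions, and the part of this in the smaller share of calls was not tested.

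**Figure D4:**
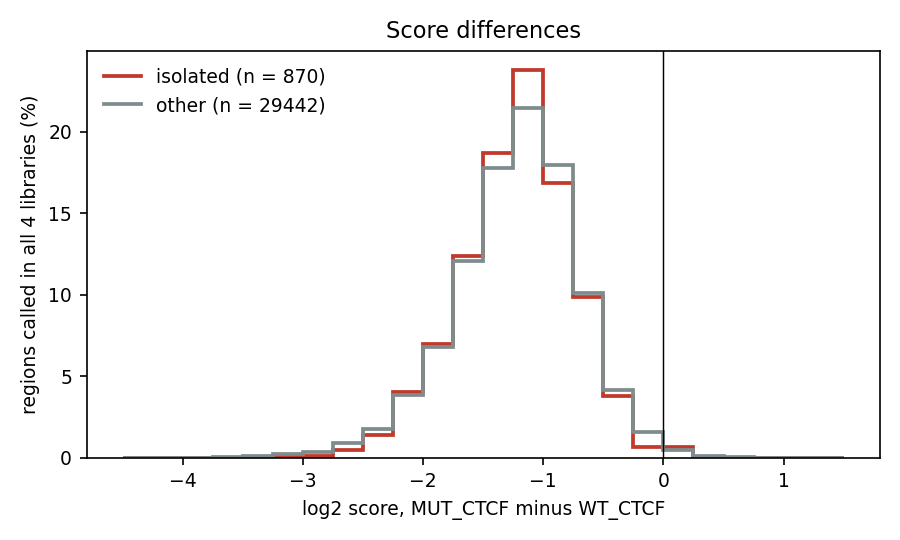
Distribution of the fitted log2 score difference (MUT_CTCF minus WT_CTCF, in steps of 0.25) as percent of regions called in all 4 libraries, for 870 isolated and 29442 other regions. Both distributions lie almost wholly below 0, with medians of -1.19 and -1.18.

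Peak summits in isolated regions lay close together across libraries. In regions called in all 4 libraries, summits of the WT_CTCF replicates were a median of 8 bp apart and those of the MUT_CTCF replicates 9 bp. Between genotypes the medians were 10 or 11 bp for the 4 pairs of libraries. Other regions were alike, with medians of 7 bp in WT_CTCF, 8 bp in MUT_CTCF and 10 or 11 bp between genotypes. The summit lay a median of 9 and 10 bp from the centre of the motif in WT_CTCF and 11 bp in both MUT_CTCF libraries, over 580 isolated regions with a motif.

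The most isolated region, chr14:6240624-6240965, had gaps of 2026 kb and 2341 kb and touched the promoter and an exon of the predicted gene Gm3468 (ENSMUSG00000079372.2). It scored 62 and 109 in WT_CTCF and 51 in MUT_CTCF replicate 1, and was not called in MUT_CTCF replicate 2. Its sequence had a median of 4.5 copies, and 18.6% of the bases within 100 kb were unknown. The next, chrX:25573192-25573578, also lay in repeated sequence, with a median of 6 copies, 84.9 kb from the start of Gm2012. It scored 113 and 164 in WT_CTCF and 48 and 47 in MUT_CTCF, a log2 difference of -1.52 ± 0.40 (SE, limma adjusted p = 0.00452).

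Both remaining regions of this kind were in single-copy intergenic sequence on chromosome X. The region chrX:115433767-115434062, 107 kb from Tgif2lx2, held an exact motif and scored 125 and 114 in WT_CTCF and 48 in MUT_CTCF replicate 1 only. The region chrX:62987773-62988218 scored 216 and 273 in WT_CTCF and was called in neither MUT_CTCF library. Its G+C content was only 28.5%, and the nearest protein-coding start, of 4930447F04Rik, was 569 kb away.

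The strongest isolated region by mean signal was chr3:14381309-14382219, with 973 scaled reads. It lay in intergenic sequence 98.5 kb from Slc7a12, which encodes an amino acid transporter, and held an exact motif. Scores were 3349 and 3517 in WT_CTCF and 1383 and 1367 in MUT_CTCF, a log2 difference of -1.32 ± 0.11 (SE, limma adjusted p = 1.29e-05). Its centred difference of -0.11 did not pass (limma adjusted p = 0.541).

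The region chr7:94559726-94560536, 81.3 kb from Tyr, the gene of the pigment enzyme tyrosinase, followed with 831 scaled reads. It scored 3694 and 4089 in WT_CTCF and 2261 and 2221 in MUT_CTCF. Its log2 difference of -0.79 ± 0.11 (SE, limma adjusted p = 8.36e-05) was nearer to 0 than the upper quartile of isolated regions (-0.91), and the centred difference of 0.42 passed (limma adjusted p = 0.00135). The region chr16:3122789-3123370 had 745 scaled reads and no region before it on the chromosome. It scored 3374 and 3741 in WT_CTCF and 1849 and 1946 in MUT_CTCF, and 20.9% of the bases within 100 kb of it were unknown.

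The region chrX:65566611-65567305 had 643 scaled reads and lay 364 kb from Fmr1, whose product regulates translation in neurons. Scores were 2881 and 3375 in WT_CTCF and 1830 and 1323 in MUT_CTCF. Its left neighbour, 2578 kb away, was the isolated region chrX:62987773-62988218 described above, so a strong region called in every library and one called in WT_CTCF only faced each other across this gap.

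The isolated region with the lowest log2 score difference was chr11:42812646-42813149, 36.1 kb from Gm9972. It scored 362 and 332 in WT_CTCF and 29 and 56 in MUT_CTCF, a log2 difference of -3.10 ± 0.40 (SE, limma adjusted p = 7.18e-05). The centred value of -1.89 also passed (limma adjusted p = 0.000321). The region chr13:81294341-81294805 in an intron of Gpr98 (ENSMUSG00000069170.6), an adhesion G protein-coupled receptor gene, scored 377 and 537 against 83 and 47. The region chr9:92394488-92395109, 42.0 kb from Plod2, which encodes a lysyl hydroxylase of collagen, scored 688 and 794 against 117 in both MUT_CTCF libraries, with no motif match. In these 3 regions both MUT_CTCF scores lay far below both WT_CTCF scores.

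The highest log2 score differences were near 0. The region chr16:77989552-77989813, 143 kb from Gm17333, scored 75 and 85 in WT_CTCF and 76 and 118 in MUT_CTCF. Its log2 difference of 0.25 ± 0.40 did not pass (SE, limma adjusted p = 0.561), but the centred difference of 1.46 did (limma adjusted p = 0.0120). The region chr3:24220346-24220719, 11.3 kb from Gm7536, scored 68 and 114 against 107 and 96. The region chr5:19976166-19976695, in an intron of Magi2 (ENSMUSG00000040003.10), a synaptic scaffold gene, scored 118 and 202 against 212 and 140. In these 3 regions the scores of the genotypes overlapped.

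Among the WT_CTCF-only isolated regions, the highest WT_CTCF scores were at chr16:85173873-85174330, with 458 and 355. It touched the promoter and an exon of App (ENSMUSG00000022892.9), which encodes the amyloid precursor protein. It had no motif match, a G+C content of 69.7% and a mean signal of 270, far above the median of 46.8 for isolated regions of this pattern. The region chr2:18435075-18435365, 121 kb from Dnajc1, a co-chaperone gene, scored 273 and 332. The region chr8:102628524-102629027, 514 kb from Gm3662, scored 241 and 351. None of the 3 regions held the motif.

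Promoter-touching members were few. Of the 108, 69 touched the promoter of a protein-coding gene. Of these 69, 40.6% were called in all 4 libraries and 27.5% were WT_CTCF-only, against 51.2% and 22.4% of the 7418 other regions at such promoters. The strongest was chr10:58274733-58275324 at Sh3rf3 (ENSMUSG00000037990.10), a ubiquitin ligase gene, with a mean signal of 346 and an exact motif. It scored 521 and 684 in WT_CTCF and 398 and 227 in MUT_CTCF, a log2 difference of -0.99 ± 0.28 (SE, limma adjusted p = 0.00668).

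The region chr9:85221607-85222425 at Fam46a (ENSMUSG00000032265.8), a poly(A) polymerase gene, had a mean signal of 320 and gaps of 824 kb and 259 kb. It scored 789 and 807 in WT_CTCF and 314 and 349 in MUT_CTCF. The region chr1:160774552-160775307 at Pappa2 (ENSMUSG00000073530.4), a protease of insulin-like growth factor binding proteins, scored 937 and 1029 against 657 and 488 and held no motif match. The region chr10:10277862-10278444 at Rab32 (ENSMUSG00000019832.3), a small GTPase of organelle traffic, scored 818 and 898 against 325 and 328. In all 4 promoter regions both MUT_CTCF scores were below both WT_CTCF scores, and none of their centred differences passed (limma adjusted p between 0.0855 and 0.882).

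**Figure D5:**
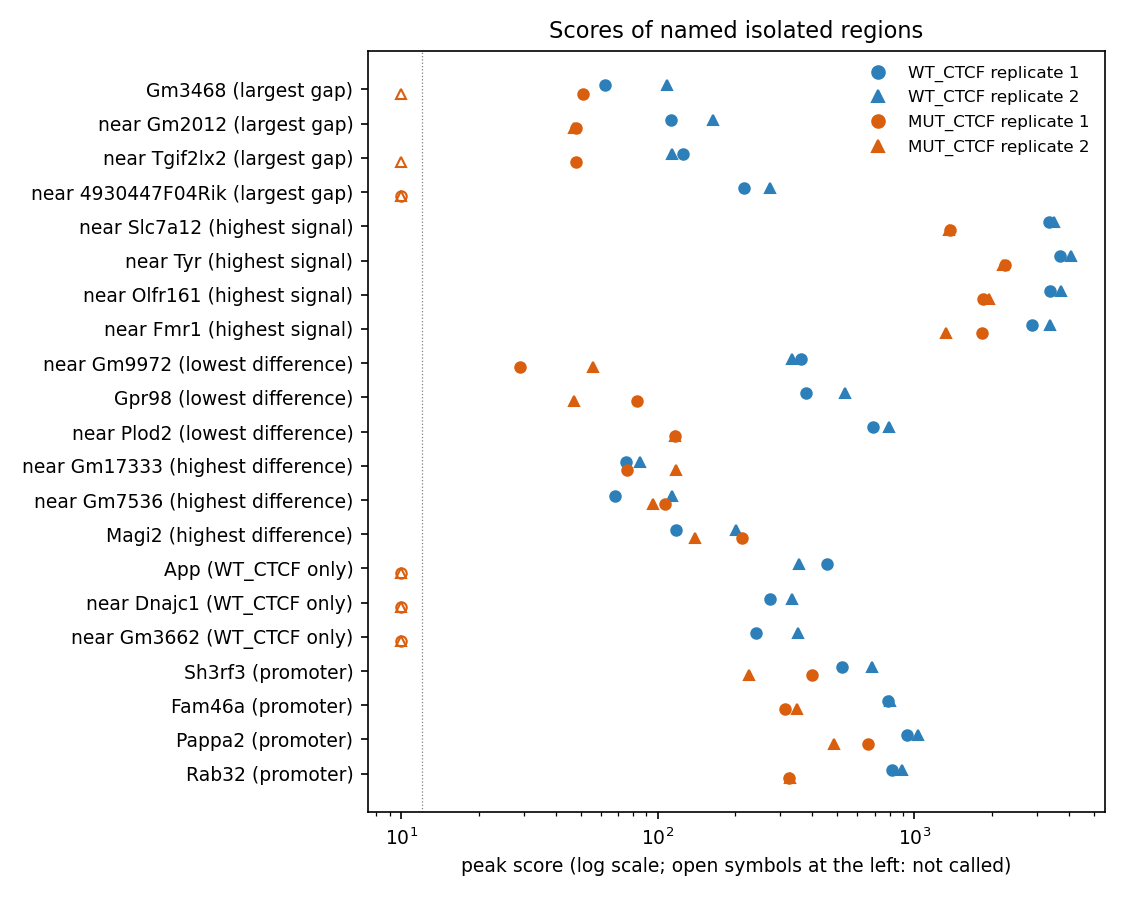
Peak scores (log axis) of 21 named isolated regions in the 4 ChIP libraries, labelled by the gene touched or nearest and by why each was named; open symbols at the left edge are libraries in which the region was not called. WT_CTCF symbols lie to the right of MUT_CTCF symbols except in the 3 regions with the highest score difference, where they overlap.

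The limit of 100 kb cut through regions of low signal. Just inside it, chr13:36211670-36211820 had a gap of 100079 bp, a mean signal of 25 and a call in WT_CTCF replicate 1 only. The region chr8:66683074-66683297 had a gap of 100093 bp, a mean signal of 53.5 and scores of 54 in both WT_CTCF libraries. Just outside it, chrX:159887280-159887646 and chrX:104772847-104773201 had gaps of 99997 bp and 99985 bp and mean signals of 44.5 and 65.8.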

How the data were processed

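Per the submitters' processing notes and the study's methods, the authors trimmed reads with Trim Galore 0.4.4, aligned them to mm9 with Bowtie2 2.3.4.1, removed multiply aligned and duplicate reads, and scaled libraries by factors from Drosophila spike-in chromatin. The authors called peaks in each library with MACS2 2.1.1.20160309. The deposited peak lists give a score, whose definition is not stated, and a summit offset in bp. The authors joined the peaks and ran DESeq2 1.38.0 on scaled counts. From that deposited table only the positions and the mean signal (baseMean, over the 4 ChIP libraries) were used. Its 5 further columns hold the authors' own comparison (log2 fold change, standard error, Wald statistic, p and adjusted p) and were not used, so that comparison of scaled reads forms no part of the results. How scaling and the cutoff affected the number of peaks called per library is unknown.

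Gaps were measured between region edges. The highest score per region and library was kept. Location came from the GENCODE vM1 annotation and sequence from the reference, both of the same build. Library values were compared by exact two-sided permutation tests, and log2 scores by limma 3.58.1 in R 4.3.3 (trend on, Benjamini-Hochberg over all fitted regions), after a test on simulated data. Replicate numbers came from the titles. They were not used to pair the samples in the main comparisons. Regions were named by fixed ranks of gap, signal, score difference and call pattern. Members, lists and tests were chosen with earlier results of these data known.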

Additional observations from a re-analysis of the deposited data

How the results depend on the processing

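Of 142 alternative values of 16 results, 117 kept the direction of a tested difference or stayed within the tolerance set for a count, share or median. Some of the tested differences among them changed in size by more than 1.5 times, as given beside the results. The number of isolated regions was 4908 with a gap above 50 kb and 607 with a gap above 200 kb. Leaving out 1 library at a time, the share lower in MUT_CTCF ranged from 0% to 64.2%, the median log2 difference from -1.25 to -1.14, the share called in WT_CTCF only from 25.2% to 35.9% and the share called in MUT_CTCF only from 0.0509% to 0.153%. With 1 library left out, the call patterns set fewer conditions, so their shares could not fall. The difference between isolated and other regions in log2 score ranged from -0.070 to 0.046 when 1 library was left out. It was also below 0 with a gap above 50 kb (-0.085), with a gap above 200 kb (-0.0025), with a reciprocal overlap of 50% (-0.028) and in single-copy sequence without unknown bases within 100 kb (-0.0015, chosen after seeing the data, 1783 isolated regions). The cause was not tested. Centred scores gave 4.71% lower, 5.06% higher and a median of 0.021, against 8.49%, 10.9% and 0.032 over all fitted regions. The centring itself places the median over all fitted regions near 0. The median log2 difference was -1.12 with the reciprocal overlap and -1.004 with peaks at or above the pooled median score, which left 10.3% of isolated regions called in all 4 libraries. The difference in share called between isolated and other regions was 4.45 points within the 5 classes of mean signal. With the replicate block, the difference in share called was -37.3 points (exact sign-flip p = 0.5, the smallest possible) and the share that limma called lower was 89.1%. For this 89.1% and the 10.3% above, the share over all regions was not computed. Replicate deviations of the genotypes had a correlation of -0.0033 across regions, so the scores held no pattern shared by replicate number. Whether libraries of the same number were prepared together is unknown. The depth of the libraries is unknown, and the 2 libraries per genotype cannot reach an exact p below 0.333.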
